A study of Mus musculus with 4 samples.

Results

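The genes described here are the nuclear genes that encode the enzyme complexes of oxidative phosphorylation. They were taken as every gene with a protein-coding transcript whose symbol begins with Ndufa, Ndufb, Ndufc, Ndufs, Ndufv, Uqcr, Atp5 or Cox4 to Cox8, together with Sdha, Sdhb, Sdhc and Sdhd. The rule found 94 genes among the 55536 mouse genes of the tables, of which 21901 have a protein-coding transcript. A further 13 genes with matching symbols lack a protein-coding transcript and were left out. By role, 7 genes encode core subunits of complex I, 29 encode accessory subunits of complex I, 4 complex II, 8 complex III, 20 complex IV and 17 complex V. The other 9 are not subunits: 8 are assembly factors of complex I (Ndufaf1 to Ndufaf8) and 1 is Atp5s, a coupling factor of the ATP synthase. Ndufa4 and Ndufa4l2 carry a complex I name and were placed with complex IV, where the Ndufa4 protein is now assigned.

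Total RNA was sequenced from T cells of the spleen, with 300 ng of RNA per library and added spike-in RNAs. The mice were 66-day-old virgin males of strain B6CASTF1/J, a first-generation cross of C57BL/6 females with CAST/EiJ males. The 4 libraries form 1 group, so no condition was compared. The labels number 4 biological replicates and give the same donor identifier for all of them, so SDs and p-values measure the spread between these samples, which may be technical. Totals were 15818334, 17335895, 16439475 and 14584388 counts in libraries 1 to 4. The 94 genes took 0.274% ± 0.00392 (SD, n = 4) of the mouse counts. The summed TPM (a level per length of transcript, scaled to the same total in every library) of 7 T cell markers was 1635 to 1716 in the 4 libraries, and all 7 were above 1 TPM in each. The summed TPM of 6 B cell markers was 116 in library 4 and 9.07 to 12.9 in the others, that of 5 erythroid markers 633 in library 4 and 15.2 to 62.3 in the others, and that of 4 neutrophil markers 25.4 in library 2 and 5.83 to 8.21 in the others. Sums were 21.8 to 25.1 for 4 monocyte and macrophage markers, 5.92 to 8.10 for 3 natural killer cell markers and 5.94 to 8.53 for 3 platelet markers.

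Oxidative phosphorylation takes place in the inner membrane of mitochondria. Complexes I and II pass electrons from NADH and succinate to ubiquinone, complex III passes them on to cytochrome c, and complex IV hands them to oxygen. Complexes I, III and IV pump protons as they do so, and complex V, the ATP synthase, lets the protons back and makes ATP. All of complex II is encoded in the nucleus, whereas complexes I, III, IV and V also contain subunits encoded in mitochondrial DNA. Resting T cells depend largely on this pathway for ATP, and activated T cells add a high rate of glycolysis.

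Nearly every subunit gene without a tissue-restricted pattern was expressed, at moderate to high levels that differed little between libraries. Levels are those of the first of 2 deposited quantifications unless the second is named. Of the 94 genes, 75 had at least 10 TPM in every library, where 25.0% of the 21901 genes with a protein-coding transcript did. A level of at least 1 TPM in every library was found for 85. The 7 genes under 1 TPM in every library all belong to complex IV. The median of the 94 mean levels was 30.7 TPM, compared with 0.463 TPM for the other 21807 genes with a protein-coding transcript. Of those 21807, 11313 were under 1 TPM in every library. A filter on low counts kept 84 of the 94 genes, with a median of 34.3 TPM. It kept 10825 of all genes with a protein-coding transcript, with a median of 11.6 TPM. By group, the median was 29.6 TPM for the complex I core, 24.4 TPM for the complex I accessory subunits, 33.8 TPM for complex II, 39.7 TPM for complex III, 65.6 TPM for the 12 complex IV genes at 1 TPM or more in every library, 53.2 TPM for complex V and 6.38 TPM for the assembly and other factors. Over all 20 complex IV genes the median was 41.1 TPM. For the 16 complex V genes at 1 TPM or more in every library it was 55.5 TPM.

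**Figure D1:**
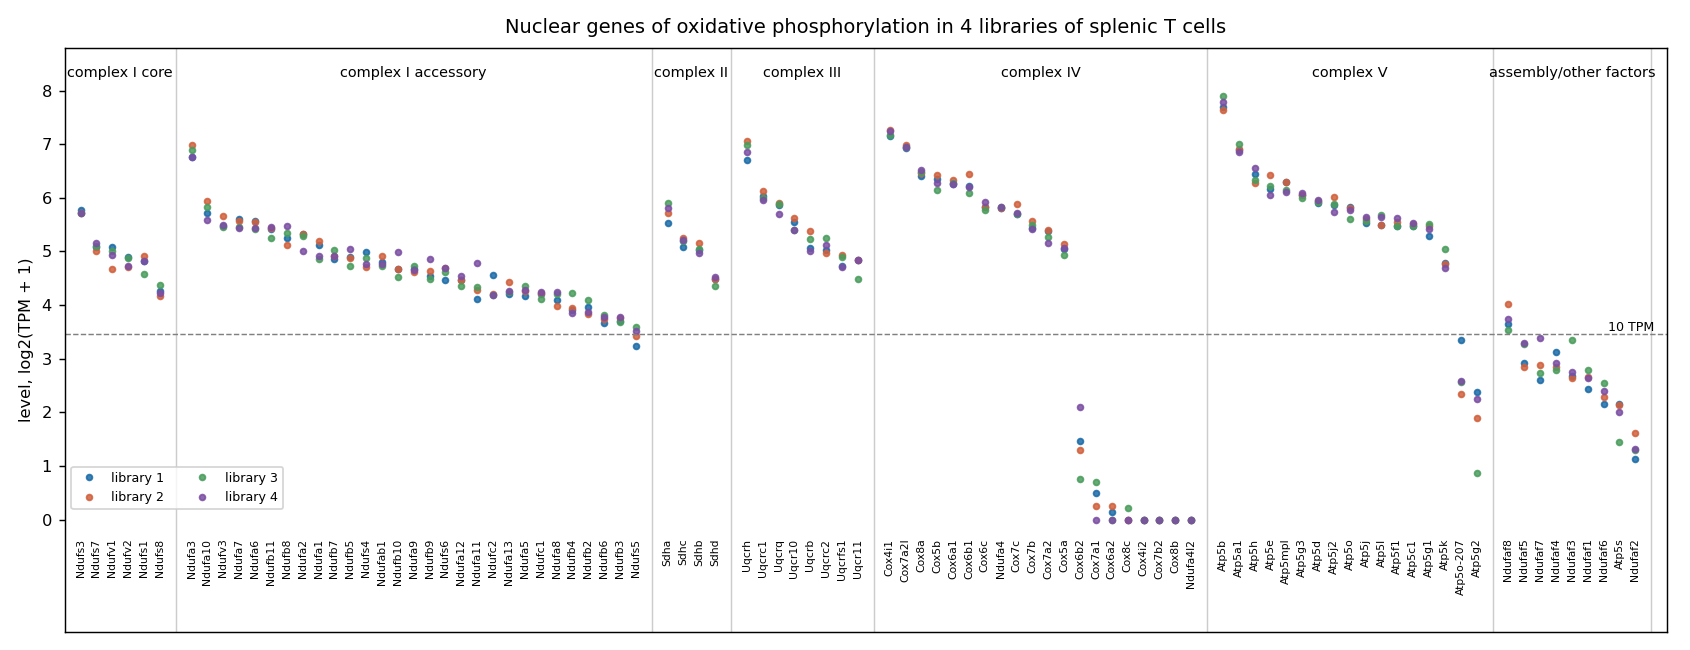
Level of the genes, as log2(TPM + 1), in the 4 libraries (1 point per library, coloured by library), grouped by complex and ordered by mean within each group. The dashed line marks 10 TPM. Most subunits lie above it in every library, 8 complex IV genes lie near 0 to 2, and 8 of the 9 assembly and other factors lie below the line.

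The catalytic core of complex I holds the flavin and the iron-sulfur clusters that carry electrons from NADH. Ndufs3 was the highest of its 7 nuclear genes, with 53.6, 51.4, 51.7 and 51.4 TPM in libraries 1 to 4, and Ndufs8, an iron-sulfur subunit, was the lowest with 18.3, 17.0, 19.8 and 17.6 TPM. The 2 ranges did not overlap, and the means differed 2.86-fold. Transcripts annotated as coding held 17.4% of the level of Ndufs3 and 100% of that of Ndufs8. The order of these 2 genes is thus that of all transcripts together, coding or not. Between them lay Ndufs7 at 33.0 ± 1.51 TPM, Ndufv1, the flavin-binding subunit that oxidises NADH, at 29.6 ± 3.62 TPM, Ndufv2 at 27.0 ± 1.96 TPM and Ndufs1 at 26.7 ± 2.65 TPM (SD, n = 4). The ranges of Ndufv1, Ndufv2 and Ndufs1 overlapped, so these 3 genes had no clear order.

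The accessory subunits of complex I surround the core and are needed for its assembly or stability. Their means spanned 11.5-fold. Ndufa3 was highest with 107, 125, 117 and 108 TPM, clear of Ndufa10 with 51.8, 60.7, 56.1 and 47.0 TPM. Ndufv3 followed at 44.9 ± 2.98 TPM, Ndufa7 at 44.8 ± 2.63 TPM and Ndufa6 at 44.2 ± 2.27 TPM, with overlapping ranges. The lowest in this quantification was Ndufs5, which shares sequence with the copy BC002163, with 8.48, 9.70, 11.0 and 10.5 TPM, and the next were Ndufb3 at 12.3 ± 0.342 TPM and Ndufb6 at 12.5 ± 0.574 TPM. In the second deposited quantification these 3 genes had 18.1, 18.2 and 18.0 TPM, in the same order. The other 21 lay between 14.4 TPM (Ndufb2) and 41.0 TPM (Ndufb11). For Ndufa3 the transcripts annotated as coding held 6.75% of the level, and a transcript annotated as subject to nonsense-mediated decay held 85.7%.

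Complex II is the succinate dehydrogenase shared with the tricarboxylic acid cycle. Sdha, its flavoprotein, had 45.0, 51.3, 59.1 and 55.0 TPM and was the highest of the 4 in every library. The membrane anchor Sdhc had 35.3 ± 1.76 TPM, the iron-sulfur subunit Sdhb had 32.2 ± 1.76 TPM and the membrane anchor Sdhd had 21 ± 1.0 TPM (SD, n = 4). The levels of Sdha and Sdhd, 2 subunits that occur once each in the complex, differed 2.50-fold.

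In complex III, Uqcrh, the acidic hinge protein near cytochrome c1, was highest with 104, 132, 126 and 114 TPM. Its lowest library was above the highest of any other complex III gene. Uqcrc1 and Uqcrc2, the core proteins, had 64.2 ± 3.28 and 33.3 ± 3.05 TPM, and their ranges did not overlap. The Rieske iron-sulfur protein Uqcrfs1 had 27.2 ± 2.25 TPM and the small subunit Uqcrq 56.4 ± 3.70 TPM. Uqcr10 had 44.2 ± 3.62 TPM, Uqcrb 35.3 ± 4.31 TPM and Uqcr11 26.1 ± 3.08 TPM. The ranges of Uqcr11 and Uqcrfs1, the 2 lowest, overlapped, and in the second quantification Uqcrfs1 was the lower of them, with 31.9 beside 35.8 TPM.

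Complex IV, cytochrome c oxidase, divided into 12 expressed genes and 8 at or near 0. Cox4i1, the largest nuclear-encoded subunit, was highest with 142, 153, 143 and 150 TPM. Cox7a2l, which joins complexes III and IV into a supercomplex, had 121, 126, 122 and 122 TPM. Cox8a had 87.7 ± 2.81 TPM, Cox5b 78.1 ± 6.78 TPM and Cox6a1 76.6 ± 2.08 TPM (SD, n = 4). Cox6b1 at 74.9 ± 8.38 TPM overlapped Cox5b and Cox6a1 in range, and Cox6c had 56.3 ± 2.47 TPM and Cox7b 43.6 ± 2.26 TPM. The lowest of the 12 was Cox5a at 32.1 ± 1.90 TPM, 4.59-fold under Cox4i1. This order is that of all transcripts together. Those annotated as coding held 94.8% of the level of Cox5a, but 21.8% for Cox5b and 31.4% for Cox7b. Ndufa4 had 55.4, 54.8, 55.6 and 55.9 TPM, a coefficient of variation of 0.835% that was below the 5.32% that counting error alone would give at its mean of 354 counts.

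Several complex IV subunits exist as a widely expressed form and a form known from heart, skeletal muscle, lung or testis. In each such pair the widely expressed form was the higher in 4 of 4 libraries. Cox4i2, the lung form known to respond to oxygen, Cox7b2 and Cox8b were listed at 0 in every library, as was Ndufa4l2, a gene known to be induced by hypoxia. Against a floor of 3 counts per library, Cox4i1 was at least 502-fold higher than Cox4i2, Cox7b at least 105-fold higher than Cox7b2, Cox8a at least 124-fold higher than Cox8b, and Ndufa4 at least 201-fold higher than Ndufa4l2. These floors cover counting error only. The muscle form Cox6a2 had 0.110, 0.20, 0 and 0 TPM from 3 counts in all, which put Cox6a1 989-fold higher with a 95% counting interval (exact Poisson, for the counts of Cox6a2) of 338 to 4795. The muscle form Cox7a1 had 0.420, 0.190, 0.620 and 0 TPM, and Cox7a2 was 125-fold higher with an interval of 60.9 to 312. The testis gene Cox8c had 1 library above 0, library 3, with 0.170 TPM.

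The testis form Cox6b2 had 1.76, 1.47, 0.700 and 3.27 TPM. It was above 0 in all 4 libraries, highest in library 4, the library with the high B cell and erythroid marker sums, whose part in this value was not tested. Its widely expressed partner Cox6b1 had 73.4, 86.6, 66.7 and 73.0 TPM. The within-library log2((TPM + 1)/(TPM + 1)) ratio of Cox6b1 to Cox6b2 was 4.83 ± 0.534 (SD, n = 4). An exact permutation test that flips the sign of each library's ratio (two-sided) gave p = 0.13 for each of the 10 pairs examined, and 0.13 after Benjamini-Hochberg adjustment over the 10. This is the smallest p that 4 libraries allow.

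Cox7a2 and Cox7a2l were both expressed. Cox7a2 had 40.8, 41.1, 37.4 and 34.9 TPM and was below Cox7a2l in 4 of 4 libraries, with a log2 ratio of -1.65 ± 0.10 (exact sign-flip permutation p = 0.13, n = 4). The level of Cox7a2 rests on 49.8% coding transcripts, and that of Cox7a2l on 95.4%.

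**Figure D2:**
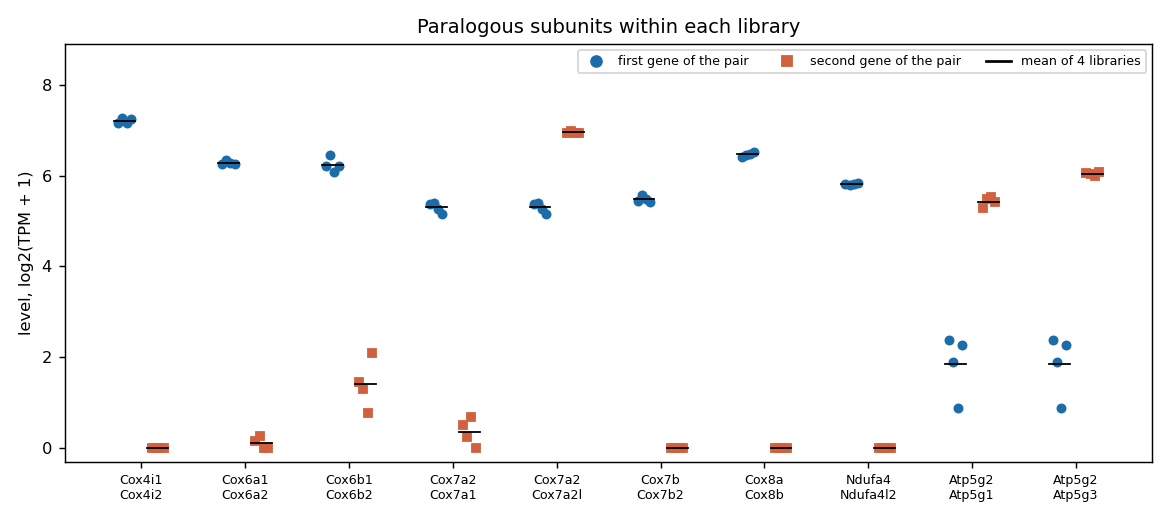
Level, as log2(TPM + 1), of the 2 genes of each of 10 paralogous pairs in 4 libraries. Circles are the gene named first, squares the gene named second, and bars the mean of the 4 log2 values. In the pairs of widely expressed and tissue-restricted complex IV forms, every square lies below every circle of its pair, and Atp5g2 lies below Atp5g1 and Atp5g3 in this quantification.

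The ATP synthase had the highest level of all, in the catalytic beta subunit Atp5b on chromosome 10 (mm10, 128083273 to 128090391), with 207, 199, 236 and 221 TPM. The alpha subunit Atp5a1, which alternates with beta in the head of the enzyme, had 118, 120, 127 and 115 TPM, with no overlap with Atp5b. The other parts of the head and stalk were lower: the gamma subunit Atp5c1 had 44.0 ± 0.966 TPM, the delta subunit Atp5d 60.4 ± 0.988 TPM and the epsilon subunit Atp5e 71.0, 85.1, 73.2 and 65.2 TPM (SD, n = 4). Atp5o, the subunit that confers oligomycin sensitivity, had 53.2 ± 3.92 TPM. Atp5h, of the peripheral stalk, had 83.7 ± 7.22 TPM, and the small membrane protein Atp5mpl had 73.1 ± 5.18 TPM. Of the same stalk, Atp5f1 had 45.2 ± 2.30 TPM and Atp5j 47.1 ± 1.74 TPM. Atp5k, a small membrane subunit, at 27.5 ± 3.19 TPM, was the lowest complex V gene above 10 TPM.

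Below 10 TPM in complex V lay Atp5g2 and a second locus with the symbol Atp5o. That locus, with the identifier ENSMUSG00000116933.1 and 1 protein-coding transcript named Atp5o-207, spans chromosome 16 from 91684398 to 91926982 and overlaps Atp5o itself. It had 9.18, 4.08, 4.93 and 5.01 TPM, highest in library 1. Of its 50-base windows, 89.8% also occur in other genes, so its level is uncertain.

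The assembly factors of complex I act on the growing complex and are absent from the finished enzyme. Ndufaf8 was highest with 11.6, 15.3, 10.6 and 12.4 TPM, followed by Ndufaf5 at 7.58 ± 1.40 TPM, Ndufaf7 at 6.63 ± 1.95 TPM, Ndufaf4 at 6.59 ± 0.812 TPM and Ndufaf3 at 6.38 ± 1.85 TPM (SD, n = 4). Ndufaf1 had 5.25 ± 0.619 TPM and Ndufaf6 4.12 ± 0.589 TPM. Ndufaf2 was lowest with 1.20, 2.08, 1.46 and 1.48 TPM, and Atp5s had 2.91 ± 0.815 TPM. This rank holds for the first quantification only. In the second, Ndufaf2 had 7.23 TPM, above Ndufaf6 with 5.92 TPM, and Atp5s was lowest with 4.04 TPM.

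Many of these genes have processed pseudogenes, copies of their spliced mRNA inserted elsewhere in the genome, and the 2 deposited quantifications divided the reads of such pairs differently. Of the 94 genes, 40 shared at least 1 stretch of 50 identical bases with a transcript of another gene. A stretch shared with a gene that has a pseudogene transcript was found for 36. The search took processed and unprocessed pseudogenes alike and found 73 such genes. A shared stretch alone does not show that a gene is a copy: Gm15694 shared 1 window with Ndufa7, and Gm48141 shared 3 with Ndufc1. Of the 73, 8 had a mean of at least 10 TPM in the first quantification and 3 in the second, and 53 were under 1 TPM in both. With pseudogenes and overlapping genes together, 14 genes shared at least 20% of their windows with other genes, and the division of their reads is uncertain: Ndufs3, Ndufa12, Ndufb4, Ndufb9, Ndufs5, Uqcrb, Cox5b, Cox7c, Atp5f1, Atp5g2, Atp5h, Atp5l, Atp5o and Atp5o-207.

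The clearest case was Atp5g2, 1 of 3 genes for the c subunit that forms the rotor ring of the ATP synthase, and Gm10175, on chromosome 7 from 23946646 to 23947290 (mm10). The coding parts aligned here, 321 bases long, are identical. These 60 coding bases, with no base in capitals because none differs, are shown because a read that lies within them is found in both genes.
Atp5g2: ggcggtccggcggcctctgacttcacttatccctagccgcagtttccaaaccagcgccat
Gm10175: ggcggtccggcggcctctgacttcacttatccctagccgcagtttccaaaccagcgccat

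In the first quantification Atp5g2, on chromosome 15 from 102662864 to 102672352, had 4.22, 2.72, 0.840 and 3.79 TPM, and Gm10175 had 103, 115, 104 and 101 TPM. In the second, Atp5g2 had 133, 151, 108 and 135 TPM, and Gm10175 had 0, 0, 17.7 and 0 TPM. The 2 loci together had a mean of 971 counts in the first and 972 in the second, so the total was the same and its division was not: Gm10175 held 97.3% in the first and 2.88% in the second. The log2 ratio of Atp5g2 to Atp5g1 was -3.57 ± 0.763 in the first and 1.36 in the second, and that to Atp5g3 was -4.19 ± 0.651 and 0.73 (exact sign-flip permutation p = 0.13 for each, n = 4). With the TPM of Gm10175 added to that of Atp5g2 in the first quantification, an alternative chosen after the data were seen, the ratios were 1.35 and 0.73. Whether Atp5g2 is the lowest or the highest of the 3 c-subunit genes therefore depends on the quantification. The other 2 were steadier, with Atp5g1 at 42.2 ± 2.88 TPM in the first and 50.6 in the second, and Atp5g3 at 65.1 ± 1.67 and 78.5.

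Atp5l, a subunit of the membrane part of the ATP synthase, and Gm10221, on chromosome 5 from 24581554 to 24581862, are identical over all 309 bases of the Atp5l coding sequence, and 60 of these are shown for that reason.
Atp5l: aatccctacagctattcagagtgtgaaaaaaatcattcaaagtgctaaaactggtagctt
Gm10221: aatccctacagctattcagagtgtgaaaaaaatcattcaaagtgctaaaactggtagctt
In the first quantification Atp5l had 44.1, 43.8, 50.4 and 49.2 TPM and Gm10221 had 65.5, 107, 78.4 and 81.2 TPM. In the second Atp5l had 78.0 ± 8.62 TPM (SD, n = 4) and Gm10221 was listed at 0 in every library. The pair had a mean of 927 counts in the first and 827 in the second.

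Ndufs5 and BC002163, on chromosome 16 from 42955631 to 42955949, differ at 2 of 318 coding bases, both inside the 60 bases shown, where capitals mark them.
Ndufs5: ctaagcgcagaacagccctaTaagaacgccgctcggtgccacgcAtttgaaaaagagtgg
BC002163: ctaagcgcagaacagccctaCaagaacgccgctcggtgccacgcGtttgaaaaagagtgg
Ndufs5 had 9.93 ± 1.11 TPM in the first quantification and 18.1 ± 1.79 in the second, and BC002163 had 10.2 ± 2.68 TPM and 0. Ndufb4 and Ndufb4c, identical over 387 coding bases, went the same way: Ndufb4 had 14.9 ± 1.93 and 35.1 ± 2.28 TPM, and Ndufb4c 24.9 ± 1.60 TPM and 0.

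Cox7c had 50.9, 58.1, 51.0 and 51.4 TPM in the first quantification, less than its copy Gm12338 with 128, 142, 133 and 136 TPM, and 117 ± 10.5 TPM in the second, where Gm12338 was listed at 0. Gm12338 is annotated as a short transcript, and its share of the 619 counts of this pair was 32.7%. Atp5h shares 291 of its 50-base windows with Gm10250. It had 83.7 ± 7.22 TPM beside 17.3 ± 3.96 TPM of the copy in the first quantification, and 134 ± 9.94 beside 0.199 in the second. In 2 pairs the copy stayed above 10 TPM in both: Gm6969, a copy of Cox7a2l, had 121 ± 12.5 TPM in the first and 104 ± 7.40 in the second, and Gm4707, a copy of Atp5b for which the annotation has a processed pseudogene transcript and a protein-coding one, had 25.8 ± 2.68 and 33.1 ± 4.92 TPM (SD, n = 4). The share of the gene's 50-base windows found in the copy was 36.7% for Atp5g2, 52.5% for Atp5l, 37.0% for Ndufb4, 35.4% for Atp5h and 21.7% for Ndufs5, and 12.7% for Cox7c, whose copy was also listed at 0 in the second quantification. It was 17.8% for Cox7a2l and 0.857% for Atp5b, and 26.2% for Ndufa12, whose copy Gm15920 had 4.97 TPM in the first and 10.9 in the second. In mean counts, Gm6969 fell from 477 in the first to 224 in the second, and Gm4707 had 428 and 421.

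**Figure D3:**
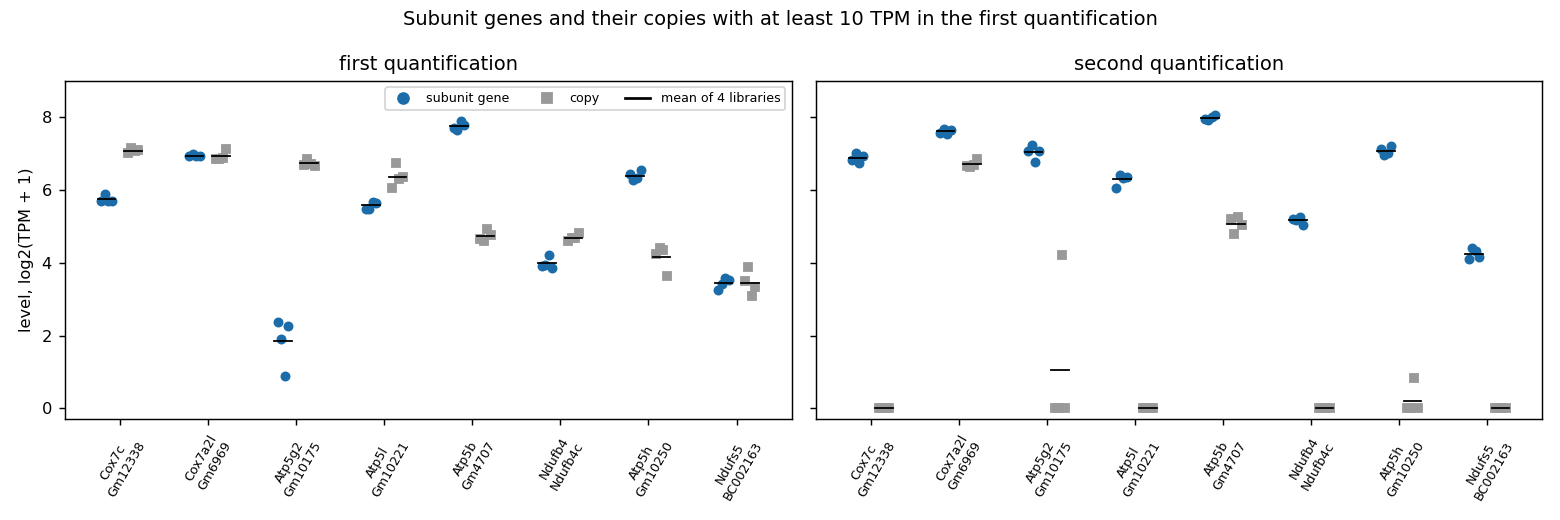
Level, as log2(TPM + 1), of 8 subunit genes (circles) and their copies (squares) in 4 libraries, in the first quantification (left) and the second (right). Bars are the mean of the 4 log2 values. For Cox7c, Atp5l, Ndufb4 and Ndufs5 the copy lies at 0 in every library on the right, and Atp5g2 and Gm10175 exchange places.

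Across the 85 genes at 1 TPM or more in every library, 79 had a higher mean TPM in the second quantification and 6 a lower one. The median ratio of second to first was 1.37, beside 1.31 for the 9641 other genes with a protein-coding transcript at that level, so a higher second value was general and close in size to that of other genes. For counts the median ratio was 1.04, beside 1.12. The 5 genes that differed most on the log2(TPM + 1) scale were Atp5g2 (5.09 higher in the second), Ndufaf2 (1.69), Ndufb4 (1.18), Cox7c (1.14) and Atp5e (1.02). Atp5e and Ndufaf2 share no 50-base window with another gene.

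**Figure D4:**
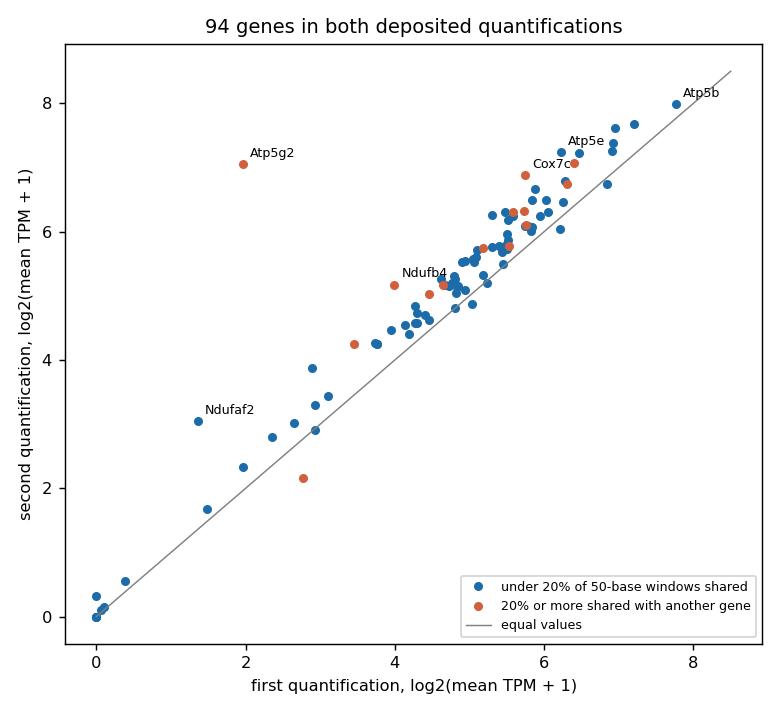
Mean level of each of the 94 genes in the first (horizontal) and second (vertical) deposited quantification, both as log2(mean TPM + 1). Orange points are the 14 genes that share at least 20% of their 50-base windows with other genes, and the line marks equal values. Atp5g2 lies farthest from the line, and most genes lie slightly above it.

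A total RNA library also reads unspliced and non-coding transcripts of a gene. At a mean of 1 TPM or more, 87 genes could be divided by transcript type in the first quantification. The coding transcripts held a median of 87.3% of the level, 90% or more in 39 genes and under 50% in 18. Transcripts annotated as retaining an intron held 20% or more in 22 genes, among them Ndufb4 (92.5%), Atp5j, a coupling factor of the peripheral stalk (81.5%), Cox7b (66.1%) and Uqcrh (48.8%). The share for Ndufb4 is uncertain. Its coding bases are identical to those of Ndufb4c, which had 24.9 TPM in this quantification and 0 in the second. The level per gene of these genes thus includes RNA that is annotated as non-coding.

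Variation between libraries was tested with edgeR's goodness-of-fit test, which asks whether the counts of a gene spread more widely than genes of like abundance, with Benjamini-Hochberg adjustment over all 13118 genes tested. Of the 94 genes, 84 passed the filter on low counts. The other 10 were the 8 complex IV genes at or near 0, Atp5g2 and Ndufaf2. None was called at an adjusted p of 0.05, where 1.40% of all tested genes were, and none had an unadjusted p under 0.05, where 4.60% of all tested genes did. With DESeq2's size factors in the same edgeR test, both counts were again 0. Without these factors, 117 of the 10825 tested genes with a protein-coding transcript were called, and 359 had an unadjusted p under 0.05. The median coefficient of variation of the 84 was 7.40%, beside the 5.30% that counting error alone gives at their counts. For all tested genes with a protein-coding transcript the median was 10.2%, beside 5.20%.

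The 5 largest statistics belonged to Atp5o-207 (unadjusted p = 0.0721 in edgeR's test), Atp5j2 (0.144), Atp5e (0.150), Ndufv1 (0.229) and Uqcrh (0.230), and the adjusted p of each rounded to 1.00. Atp5j2, a subunit of the membrane part of the ATP synthase, had 57.4, 63.8, 58.0 and 52.0 TPM. Library 2 was the highest and library 4 the lowest for both Atp5j2 and Atp5e, whereas Ndufv1 was lowest in library 2 (32.9, 24.6, 31.3 and 29.7 TPM).

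A small shift common to many of the 84 genes was visible. The deviation of each gene from its own mean over the 4 libraries, in log2 CPM (counts scaled to library size) with TMM scaling (edgeR's trimmed mean of M-values), had a median of 0.038, 0.037, -0.029 and -0.046 in libraries 1 to 4, and at most 0.004 in size for the other tested genes. Of the 84, 59, 57, 34 and 21 lay above their own mean in libraries 1 to 4, or 70.2%, 67.9%, 40.5% and 25.0%. For all tested genes with a protein-coding transcript the shares were 51.0%, 52.4%, 49.0% and 49.4%. In complex IV, 11 of 12 genes lay above their mean in library 2 and 0 of 12 in library 4. In complex III, 7 of 8 did in library 2 and 1 of 8 in library 4. In complex V, 12 of 16 did in library 2 and 2 of 16 in library 4. Among the complex I accessory genes, 17 of 29 did in library 2 and 10 of 29 in library 4. Other groups differed: in library 2, 3 of 7 complex I core genes lay above their mean, with a median of -0.067, and in library 4, 2 of 4 complex II genes and 4 of 8 assembly and other factors did. The 4 deviations of a gene sum to about 0, so these shares are not independent of each other. Scaled by spike-ins, the medians were -0.041, 0.054, -0.117 and 0.105, and those of the other tested genes moved with them, to -0.078, 0.016, -0.086 and 0.154. The difference between these 84 genes and the other tested genes was -0.050 in library 4 with TMM scaling and -0.049 with spike-ins. The part of the B cell and erythroid markers of library 4 in this was not tested. In bulk samples, fewer cells of a type and less RNA per cell cannot be told apart.

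**Figure D5:**
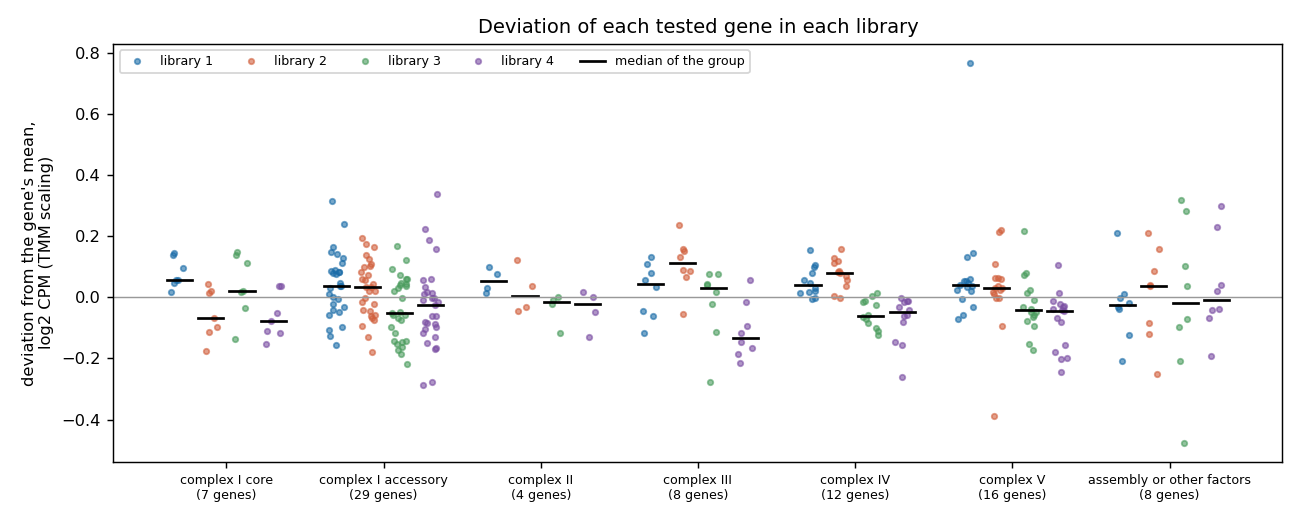
Deviation of each of the 84 tested genes from its own mean over 4 libraries, in log2 CPM with TMM scaling, by group and library. Points are genes and black bars are group medians. All group medians but that of the complex I core lie above 0 in library 2, and all lie below 0 in library 4, by at most 0.132.

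The 13 subunits encoded in mitochondrial DNA had a median of 575 TPM and were all above 10 TPM in every library. The mean TPM of the mitochondrially encoded subunits of a complex was 17.5 ± 1.53 times that of its expressed nuclear subunits in complex I, 22.9 ± 3.07 times in complex III, 13.1 ± 0.437 times in complex IV and 12.8 ± 1.62 times in complex V (SD, n = 4). The test called 3 of the 13 as varying between libraries, where 1.40% of all tested genes were called. The gene mt-Co3, with 185, 471, 89.6 and 327 TPM, had an adjusted p of 2.34e-69, mt-Co2, with 139, 81.2, 213 and 62.4 TPM, of 6.28e-37, and mt-Nd4l, with 593, 447, 452 and 427 TPM, of 0.00697 (edgeR). In the second quantification the means of mt-Co3 and mt-Co2 were 1053 and 341 TPM, beside 268 and 124 in the first. Those of the ATP synthase subunits mt-Atp6 and mt-Atp8 were 2030 and 0 TPM, beside 654 and 1037 in the first, so the ratio for complex V and the order of the 13 hold for the first quantification. The gene mt-Co1 was highest of the 13 at 2454 ± 106 TPM, and mt-Nd6 lowest at 51.6 ± 6.35 TPM.

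Among other genes of the pathway, listed apart from the symbol rule, none was called in 5 lists, where 1.40% of all tested genes were. Of 12 further subunits and carriers, 4 had at least 10 TPM in every library: these were led by Usmg5, a small subunit of the ATP synthase, at 59.8 TPM and Cyc1, cytochrome c1, at 23.7 TPM. Cycs, the cytochrome c of somatic cells, had 7.03, 9.72, 8.55 and 8.93 TPM, and the testis form Cyct was listed at 0 in every library. Of 41 assembly factors, 14 had at least 10 TPM in every library, led by Cox16 at 25.0 TPM and the copper chaperone Cox17 at 24.2 TPM, with Sdhaf3 lowest at 1.19 TPM. Their median of 9.29 TPM, like the 6.38 TPM of the Ndufaf genes and Atp5s, was below the median of every group of subunits.

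The list of pyruvate entry and the tricarboxylic acid cycle had 17 of 19 genes at 10 TPM or more in every library, a median of 17.6 TPM, and Dlst, a subunit of the oxoglutarate dehydrogenase complex, at 68.7 TPM and the malate dehydrogenase Mdh2 at 62.5 TPM as its highest and the fumarase Fh1 at 8.29 TPM as its lowest. Ubiquinone synthesis was lower, with 2 of 13 genes at that level, a median of 6.41 TPM, Coq10b highest at 22.0 TPM and Coq3 lowest at 0.965 TPM. Unadjusted p-values under 0.05 from edgeR's test numbered 1 of 11 tested further subunits and carriers, 1 of 40 assembly factors, and 0 in the lists of 19, 13 and 18 tested genes for the cycle, ubiquinone and regulators. Of all tested genes, 4.60% had such a value.

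Of 19 regulators of mitochondrial gene expression, 14 had at least 10 TPM in every library. The highest were Polg, the polymerase of mitochondrial DNA, at 48.4 TPM and Sp1 at 44.1 TPM. The PGC-1 family of coactivators was represented by Pprc1, with 30.6, 43.0, 41.5 and 36.8 TPM, and Ppargc1b, with 6.43, 7.20, 7.15 and 8.13 TPM. Ppargc1a, the member known from brown fat, muscle and liver, was lowest of the 19 with 0.170, 0.160, 0.0200 and 0.0400 TPM. Nrf1 had 25.9 TPM, Gabpa 16.3 TPM and Yy1 29.0 TPM, and these 3 genes encode factors known to bind promoters of respiratory genes.

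Short forms of the motifs of these 3 factors were therefore searched on both strands in RefSeq promoters (GRCm38.p6, 250 bases before to 50 after a gene's start), which were at hand for 75 of the 94 genes. GCGCATGCG, for NRF1, occurred in 10 of 75 (13.3%), in 2.73% of 16520 genes with a protein-coding transcript and a promoter, and in 4.89% of the 4414 of these with at least 10 TPM in every library. AAGATGGCG, for YY1, occurred in 8 of 75 (10.7%), beside 2.25% and 4.80%. CCGGAAGT, for GABPA, occurred in 5 of 75 (6.67%), beside 5.94% and 11.8%, so its share among the 75 was below that of genes at this level. At least 1 of the 3 occurred in 22 of 75 (29.3%), beside 10.3% and 20.2%. None of the 3 motifs contains another. The shares were not compared by a test, and a match describes letters and not a bound site.

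For each motif, the 2 genes with the highest level in the first quantification are shown, 30 bases each, with the motif or its reverse complement in capitals. Cox6a1 (chr5:115349101-115349130, minus strand) and Uqcrc1 (chr9:108936668-108936697, plus strand) hold the NRF1 motif, Uqcrh (chr4:116075062-116075091, minus strand) and Cox8a (chr19:7217603-7217632, minus strand) the GABPA motif, and Atp5j2 (chr5:145191499-145191528, minus strand) and Atp5j (chr16:84835045-84835074, minus strand) the YY1 motif.
Cox6a1: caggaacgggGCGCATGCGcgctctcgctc
Uqcrc1: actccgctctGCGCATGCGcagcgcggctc
Uqcrh: agtatgccgcACTTCCGGccaggtcgccgg
Cox8a: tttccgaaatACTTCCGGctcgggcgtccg
Atp5j2: ccaggacttcAAGATGGCGtcactcggtga
Atp5j: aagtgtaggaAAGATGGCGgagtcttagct
The motif begins 162 bases before the start of Cox6a1, 88 before that of Atp5j, 11 before that of Uqcrh and 6 before that of Cox8a. It begins 24 bases after the start of Atp5j2 and 31 after that of Uqcrc1. The levels of these 6 genes were 76.6, 64.2, 119, 87.7, 57.8 and 47.1 TPM in the order shown. The genes were chosen by level, so these values do not describe the other genes with a motif.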

How the data were processed

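Per the labels, total RNA of 4 libraries was prepared with a directional kit and quantified against mm10; the text deposited with each library names GENCODE M21. Names of the aligner and quantifiers were not given in the sources used here. Deposited expected counts (first quantification, RSEM layout) and estimated counts (second, kallisto layout) are not normalized. The deposited TPM values divide by effective length and sum to a fixed total, spike-ins included. The deposited FPKM values are per length and per counted read, and the deposited percent values give each transcript's share of its gene. Reads were assigned to the C57BL/6 reference, which can lose or misplace reads of the CAST/EiJ allele.

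Expected counts were rounded and fitted without a contrast in edgeR 4.0.16 (R 4.3.3; filterByExpr, TMM, trended dispersion), checked on simulated data. Numeric identifiers, at most 8.75e-05% of counts, and spike-ins (0.299% to 0.347%) stayed out. Ratios of paralogues used log2(TPM + 1). For the second quantification, transcript values were added up by gene. Copies were found from shared 50-base windows of M21 transcripts. The symbols Atp5if1 and 2010107E04Rik of the lists had no identifier in the tables.

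The members, lists and tests were chosen with earlier results of these data known. Genes named are the 5 highest and 3 lowest of each group, paralogue pairs, core and head subunits, the 5 largest test statistics, the 5 largest differences between quantifications, and flagged genes. Copies, markers of other transcript types and promoter stretches were named after their values were seen. Alternatives were DESeq2 1.42.0 size factors, spike-in and total-count scaling, no filter, a common dispersion, the second quantification, FPKM, a pseudocount of 0.1 and each library left out. The values of 1 core subunit of complex I are not reported here; it stays in counts and medians.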

Additional observations from a re-analysis of the deposited data

Results flagged for a closer look

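Among the 87 genes with a mean of 1 TPM or more, 8 had 1 library set apart from the other 3, with a gap to the nearest over 0.83 of the range (Dixon's criterion). Chance flags about 1 in 20 groups. No share over the other genes stands beside this count, so it does not set these genes apart from others. The high values were Ndufs3 in library 1 (53.6 TPM, others 51.4 to 51.7), Ndufc2 in library 1 (22.7 TPM, others 17.2 to 17.4), Ndufv3 in library 2 (49.3 TPM, others 42.8 to 43.8), Cox7a2l in library 2 (126 TPM, others 121 to 122), Cox7c in library 2 (58.1 TPM, others 50.9 to 51.4) and Ndufaf3 in library 3 (9.14 TPM, others 5.24 to 5.71). The low values were Ndufa2 in library 4 (31.1 TPM, others 37.9 to 39.0) and Uqcr11 in library 3 (21.5 TPM, others 27.5 to 27.8). None of these 8 genes was called as varying by edgeR's goodness-of-fit test, and none had an unadjusted p under 0.05.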

How the results depend on the processing

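No paired analysis was possible because the libraries form 1 group. The count of the 94 genes called as varying was 0 under every alternative run, 0 to 0 with each library left out. An unadjusted p under 0.05 was found for 1 gene without the count filter (Atp5g2), 1 with a common dispersion (Atp5o-207), 2 in the second quantification (Atp5e and Atp5g2), and 1 without library 3 or without library 4 (Atp5o-207 each time). Calls over all genes numbered 183, beside 279 without the filter, 353 with a common dispersion, and 116 to 146 with a library left out. The median log2(TPM + pseudocount) of the 94 genes was 5.0, 4.95 with a pseudocount of 0.1, 5.12 over genes at 1 TPM or more in every library, 5.41 in the second quantification and 4.98 to 5.01 with a library left out. The log2 ratios of Atp5g2 to Atp5g1 and Atp5g3 reversed in the second quantification, to 1.36 and 0.73, and with the TPM of Gm10175 added, to 1.35 and 0.73. With a library left out they were -3.80 to -3.22 and -4.37 to -3.88. The other 8 ratios kept their direction under every alternative; leaving out a library allows no p below 0.25. Against TMM scaling, spike-ins moved the median deviation to -0.041, -0.117 and 0.105 in libraries 1, 3 and 4, and total counts with no TMM factor to 0.013, 0.020, -0.022 and -0.011 in libraries 1 to 4. Depth limits the genes near 0: 3 counts correspond to 0.290 to 0.345 TPM at the median length of the 94 genes.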
